A study of Mus musculus with 12 samples.

Results

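Polycomb group proteins work in 2 main complexes, and the transcripts of 10 of their subunits were followed here through 4 kinds of mouse embryonic stem cell (ESC) culture. The subunits were Ezh1, Ezh2, Eed, Suz12, Jarid2 and Mtf2 of Polycomb repressive complex 2 (PRC2), and Rnf2, Ring1, Bmi1 and Cbx7 of Polycomb repressive complex 1 (PRC1). They were taken by symbol from a table of 24881 gene symbols, and each of the 10 had a row. R1 mouse ESCs carrying FUCCI reporters, fluorescent proteins that mark the phase of the cell cycle, were sorted for G1 phase, and their rRNA-depleted total RNA was sequenced. All 4 groups shared this line, the reporters and the G1 sort. The groups were wild-type (WT) ESCs in serum with LIF, P53-/- ESCs in serum, WT ESCs in 2i (serum-free medium with inhibitors of MEK and GSK3 and with LIF) and P53-/- ESCs in 2i, with 2 libraries each. The P53-/- cells were CRISPR/Cas9 clones with a cut in Trp53, and the paper names 2 clones for its RNA-seq. Which clone gave which library is not stated in the table, so clone and library cannot be told apart. The libraries of P21 knockout ESCs and their WT controls were not analysed here.

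PRC2 places methyl groups on lysine 27 of histone H3. Ezh2 or its paralogue Ezh1 is the catalytic subunit, Eed binds the methylated product, and Suz12 holds the core together. Jarid2 and Mtf2 are accessory subunits of alternative forms of PRC2 that help to bring it to chromatin, above all at CpG islands. PRC1 places ubiquitin on histone H2A through the ligases Rnf2 (RING1B) or Ring1 (RING1A). In canonical PRC1 a PCGF protein such as Bmi1 or Pcgf2 is joined by a chromobox protein such as Cbx7, which reads the PRC2 mark. In ESCs both complexes sit on silent developmental genes.

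The promoters of 4 subunits are shown. Ezh2, Suz12 and Jarid2 stand for the 6 subunits called lower in 2i than in serum in both genotypes, and include both windows with an E2F match, which those of Eed, Mtf2 and Rnf2 lack. Bmi1 had the largest difference between P53-/- and WT ESCs. The windows are from RefSeq (mouse build GRCm38.p6), run from 250 bases before to 50 bases after the start site, and are written on the strand of the gene. Capitals mark matches to E2F motifs (TTTGGCGC, TTTCGCGC, TTTCCCGC or TTTGCCGC), to the CCAAT box or, in Bmi1 only, to the E-box CACGTG, each searched on both strands.
Ezh2, minus strand, chr6:47594981-47595280: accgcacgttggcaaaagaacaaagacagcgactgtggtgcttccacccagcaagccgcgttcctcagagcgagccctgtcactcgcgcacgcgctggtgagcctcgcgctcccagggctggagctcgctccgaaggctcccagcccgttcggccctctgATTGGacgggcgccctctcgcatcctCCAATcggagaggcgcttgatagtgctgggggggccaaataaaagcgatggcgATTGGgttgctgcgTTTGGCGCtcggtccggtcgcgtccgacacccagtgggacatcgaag
Suz12, plus strand, chr11:79992856-79993155: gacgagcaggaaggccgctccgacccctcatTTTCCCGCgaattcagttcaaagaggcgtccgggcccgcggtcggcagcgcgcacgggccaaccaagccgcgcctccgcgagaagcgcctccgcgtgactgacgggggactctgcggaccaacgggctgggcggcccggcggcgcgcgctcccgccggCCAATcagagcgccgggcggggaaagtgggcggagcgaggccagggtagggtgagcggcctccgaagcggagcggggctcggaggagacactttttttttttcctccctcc
Jarid2, plus strand, chr13:44730524-44730823: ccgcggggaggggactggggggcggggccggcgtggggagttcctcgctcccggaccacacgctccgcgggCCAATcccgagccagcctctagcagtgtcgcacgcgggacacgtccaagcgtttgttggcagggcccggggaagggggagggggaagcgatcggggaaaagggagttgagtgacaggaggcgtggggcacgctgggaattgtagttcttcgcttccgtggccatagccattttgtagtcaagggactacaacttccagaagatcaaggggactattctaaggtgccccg
Bmi1, plus strand, chr2:18676768-18677067: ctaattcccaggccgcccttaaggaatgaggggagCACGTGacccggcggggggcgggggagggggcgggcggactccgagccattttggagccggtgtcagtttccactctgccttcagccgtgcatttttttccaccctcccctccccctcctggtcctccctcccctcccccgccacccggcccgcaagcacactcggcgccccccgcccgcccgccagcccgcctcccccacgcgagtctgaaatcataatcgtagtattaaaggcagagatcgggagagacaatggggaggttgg

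The Ezh2 window held an E2F match at position 4 after the start site and CCAAT box matches at -90, -64 and -11. The Suz12 window held an E2F match at -219 and a CCAAT box at -61, and the first of the 2 Jarid2 windows a CCAAT box at -179. The E-box of Bmi1 lay at -215, and the marked matches did not overlap one another. Over all 32851 windows of the RefSeq table, 2.26% held an E2F match, 37.4% a CCAAT box and 7.15% the E-box. Of the 10 subunits, which had 12 windows in all, 2 had an E2F match, 6 a CCAAT box and 1 the E-box. None of the 12 windows held a P53 half-site, a motif found in 8.36% of all windows. A match is a run of letters and not a measured binding site.

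Expression was measured in FPKM, a fragment count scaled by transcript length and library depth, so levels can be set side by side between genes. In WT serum ESCs the subunits ranged from a mean of 213 FPKM for Eed to 2.08 for Ring1. Eed and Mtf2 led in each of the 4 groups, followed by Suz12. Mtf2 and Eed were at 197 and 213 FPKM in WT serum ESCs and at 112 and 91.6 in WT 2i ESCs, and in serum the lower Eed library (209) lay just above the higher Mtf2 library (208). Ezh2 (101 FPKM) and Jarid2 (95) were neighbours in WT serum ESCs and their libraries overlapped. Ezh1, Bmi1 and Ring1 were the 3 lowest in WT ESCs of either culture, and there Ezh1 and Bmi1 overlapped, while Ring1 lay below both. Among the 12572 genes that passed the filter on low values (a mean of at least 0.5 FPKM), Eed stood at the 96.2 percentile in WT serum ESCs and Ring1 at the 22.1 percentile. All 10 subunits passed this filter.

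**Figure D1:**
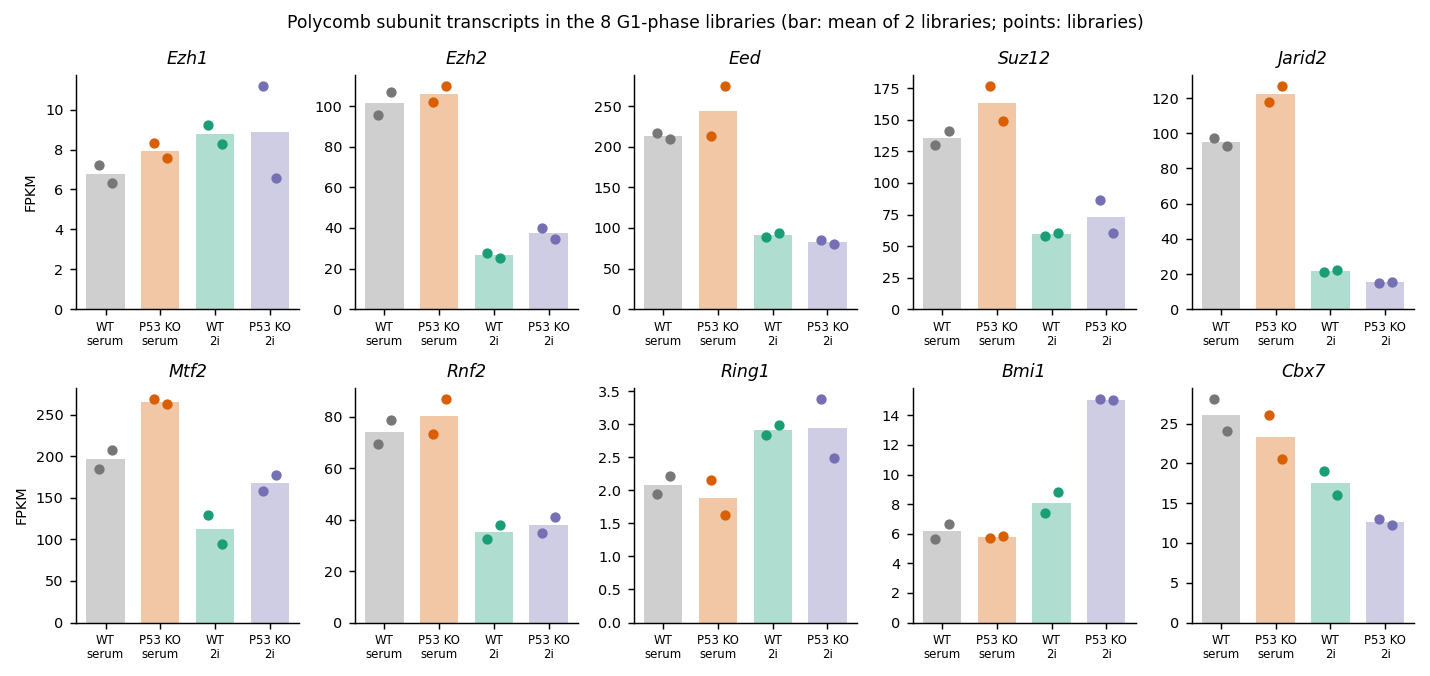
Expression of the 10 Polycomb subunits in FPKM (linear axis from 0, a scale for each gene), with groups on the horizontal axis, 2 libraries as points and their mean as a bar. Ezh2, Eed, Suz12, Jarid2, Mtf2 and Rnf2 are lower in both 2i groups than in both serum groups, and Bmi1 is highest in P53-/- 2i ESCs at 15 and 15.1 FPKM.

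Differences were tested with limma on log2(FPKM + 0.1) in 1 fit of the 8 libraries. Genes with a Benjamini-Hochberg adjusted p below 0.1 over the 12572 genes that also differed by more than 1.5-fold were called. Fold changes are on this log scale, which understates the change of low genes. Nothing in the labels says that the 2 libraries of a group came from separate cultures, so the p-values measure the spread between these libraries. In the P53-/- groups this spread may include a difference between clones. In bulk RNA a change in the cells present and a change of RNA per cell cannot be told apart. In 2i, Trp53 was at 26.8 and 33.7 FPKM without and 7.25 and 1.88 with the knockout. In serum it was at 77.6 and 75.1 FPKM without and 16.8 and 3.68 with it. The log2 fold changes were -2.98 in 2i (limma adjusted p = 0.05471) and -3.26 in serum (limma adjusted p = 0.15), with a wide spread between the P53-/- libraries. Cdkn1a, the P53 target that codes for P21, was lower in P53-/- ESCs in both cultures, with log2 fold changes of -2.24 in 2i (limma adjusted p = 0.002175) and -2.18 in serum (limma adjusted p = 0.006009). In each culture 1 P53-/- library kept more Trp53 RNA than the other, and Cdkn1a was low in all 4.

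Depth, read roughly from the steps between low values, ran from 5200000 to 13000000 fragments, and the libraries held 15181 to 15792 genes above 0. Small RNA genes took 92.5% to 99.1% of the summed FPKM, with the highest share in a WT serum library. The ESC markers, 11 genes such as Pou5f1, Sox2 and Nanog, were above 0 in every library and summed to 3320 to 4320 FPKM, mostly Dppa5a (1400 to 2690) and Pou5f1 (473 to 982). The list did not move as one. In WT 2i against WT serum 4 of its genes were called lower, among them Lin28a (10.2-fold), Utf1 (8.41-fold) and Sall4 (3.61-fold), and Pou5f1 higher (1.74-fold). In P53-/- ESCs 7 were called lower in 2i and 1 higher, and for P53 loss in 2i Klf4 and Lin28a were called lower. Over all genes 28.6% were called lower and 27.2% higher between cultures in WT ESCs, and 30.1% and 28% in P53-/- ESCs. For P53 loss in 2i 5.97% of all genes were called lower. Of 10 fibroblast markers, which would show feeder cells, 4 or 5 were at 0 in each library, and their sum of 9.52 to 11.8 in serum and 1.15 to 2.33 in 2i was mostly Thy1 in serum (7.55 to 10.5). Primitive endoderm markers, a list of 10, summed to 22.6 to 36.8 FPKM in serum and 11.9 to 16.6 in 2i, mostly Lama1 (9.2 to 16.6) and, in serum, Col4a1 (11.2 to 17.4, against 0.0907 to 1.94 in 2i). Gata4 of this list was called higher in 2i in both genotypes.

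The effect of culture was asked first in WT ESCs. Of the 6 PRC2 subunits followed, Ezh2, Eed, Suz12, Jarid2 and Mtf2 were called lower in 2i than in serum and Ezh1 was not. Of the PRC1 members followed, Rnf2 was called lower. In all, 6 of the 10 subunits were called lower and 0 higher, where 28.6% of all tested genes were called lower and 27.2% higher. That balance, 3418 genes higher and 3590 lower, became 4193 higher and 2117 lower without small RNA genes. There 5 of the 6 subunits, without Mtf2, were called lower. In that alternative the rest was scaled to an equal sum, which still held the gene Gm12238. Gm12238 was at 34100 to 282000 FPKM in the serum libraries and at 10800 to 15700 in those of 2i. With Gm12238 also left out, an alternative chosen after seeing the data, 3285 genes were higher and 3729 lower, and Mtf2 kept its call. In the main fit the median log2 fold change of the 10 was -0.95, against -0.02 over all genes tested.

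Ezh2, the main methyltransferase of proliferating cells, was at 95.6 and 107 FPKM in WT serum ESCs and at 27.6 and 25.3 in WT 2i ESCs. The groups lay far apart, with a log2 fold change of -1.93 (SE 0.13, limma adjusted p = 3.32e-05), a 3.81-fold lower level. Its paralogue Ezh1 was at 7.22 and 6.32 FPKM in serum and 9.23 and 8.3 in 2i. Here both 2i libraries were the higher ones, but the log2 difference of 0.37 (95% interval -0.19 to 0.93) did not pass the test (limma adjusted p = 0.218).

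Eed was at 217 and 209 FPKM in WT serum and at 89.4 and 93.8 in WT 2i. Suz12 was at 130 and 141 FPKM in serum and at 58 and 60.6 in 2i. Both core subunits were thus lower in both 2i libraries, by similar factors. The log2 fold change was -1.22 for Eed (SE 0.14, limma adjusted p = 0.0002852) and -1.19 for Suz12 (SE 0.18, limma adjusted p = 0.0009226).

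Jarid2, a jumonji domain protein without demethylase activity, and Ezh2 were the furthest apart between cultures, with overlapping 95% intervals and the opposite order when centred on chromosome medians. Jarid2 was at 97.2 and 92.7 FPKM in WT serum ESCs and at 21.2 and 22.2 in WT 2i ESCs, a log2 fold change of -2.13 (SE 0.11, limma adjusted p = 1.872e-05) or 4.36-fold. Mtf2 (PCL2), a Polycomb-like protein that binds unmethylated CpG-rich DNA, was at 185 and 208 FPKM in serum and at 130 and 94.8 in 2i. Its groups did not overlap, and the log2 fold change was -0.82 (SE 0.17, limma adjusted p = 0.003833). This call was lost when small RNA genes were left out and the rest scaled to an equal sum (log2 fold change -0.52, limma adjusted p = 0.1837). It was kept in 20 of 21 alternatives, among them the one that also left out Gm12238.

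Among the PRC1 subunits, Rnf2 was at 69.4 and 79 FPKM in WT serum and at 32.6 and 38 in WT 2i. It was lower in both 2i libraries, with a log2 fold change of -1.07 (SE 0.15, limma adjusted p = 0.000635). The other ligase, Ring1, was at 1.94 and 2.22 FPKM in serum and 2.83 and 2.98 in 2i. Its libraries pointed the other way, and its log2 difference of 0.46 (95% interval -0.10 to 1.03) did not pass the test (limma adjusted p = 0.1337).

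Cbx7, the main chromobox protein of canonical PRC1 in ESCs, was at 28.1 and 24.1 FPKM in WT serum and at 19 and 16 in WT 2i. Both 2i libraries lay below both serum libraries, and the log2 fold change of -0.57 (SE 0.16, limma adjusted p = 0.01645) was a 1.49-fold difference, just under the fold threshold. It was called lower in 5 of 21 alternatives, among them those without the first WT 2i library (-0.70, limma adjusted p = 0.02235) or the second WT serum library (-0.68, limma adjusted p = 0.03681). Bmi1, a PCGF protein best known as a repressor of the Cdkn2a locus, was at 5.65 and 6.69 FPKM in serum and at 7.38 and 8.83 in 2i. It was somewhat higher in 2i with a log2 difference of 0.39 (SE 0.15, limma adjusted p = 0.05988), also under the fold threshold.

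P53-/- ESCs gave the same comparison of cultures in other libraries. Of the 10 subunits, 7 were called lower in 2i and 2 higher, where 30.1% of tested genes were called lower and 28% higher (3790 and 3526 genes, or 2643 and 3962 without small RNA genes). With Gm12238 also left out, the counts over all genes were 4058 lower and 3290 higher. The 6 called lower in WT ESCs were all among the 7, with Cbx7 added, and Bmi1 and Ring1 were the 2 called higher. The median log2 fold change of the 10 was -0.97, against -0.03 over all genes tested.

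Jarid2 differed most here, at 118 and 127 FPKM in P53-/- serum ESCs and 14.9 and 15.5 in P53-/- 2i ESCs. This was 8.02-fold, a log2 fold change of -3.00 (SE 0.11, limma adjusted p = 4.906e-06). Ezh2 was at 102 and 110 FPKM in serum and at 40.2 and 34.6 in 2i, a log2 fold change of -1.51 (SE 0.13, limma adjusted p = 6.102e-05). For both genes the cultures were separated by far more than the spread within a pair of libraries.

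Eed was at 213 and 275 FPKM in P53-/- serum and at 85.4 and 80.2 in P53-/- 2i, a log2 fold change of -1.55 (limma adjusted p = 8.625e-05). Suz12 was at 177 and 149 FPKM in serum and at 86.3 and 60 in 2i, a log2 fold change of -1.18 (limma adjusted p = 0.0008977). The 2 P53-/- libraries of a culture were less alike for these core subunits than the WT libraries, but the cultures did not overlap. Mtf2 was at 269 and 263 FPKM in serum and at 158 and 177 in 2i, a log2 fold change of -0.67 (limma adjusted p = 0.009392). Its call was lost without small RNA genes (log2 fold change -0.45, limma adjusted p = 0.251). The Mtf2 call was kept in 20 of 21 alternatives, also with Gm12238 left out as well. Ezh1 overlapped between the cultures, at 8.33 and 7.57 FPKM in serum and 11.2 and 6.57 in 2i.

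Rnf2 was at 73.5 and 87 FPKM in P53-/- serum and at 34.9 and 40.9 in P53-/- 2i, a log2 fold change of -1.08 (limma adjusted p = 0.0005467). Cbx7 was at 26.1 and 20.6 FPKM in serum and at 13 and 12.3 in 2i, a log2 fold change of -0.87 (limma adjusted p = 0.00231), a call that was lost without small RNA genes (-0.65, limma adjusted p = 0.1204). The Cbx7 call was kept in 20 of 21 alternatives, among them the one that also left out Gm12238. Both PRC1 genes were lower in 2i in every library. Bmi1 went the other way, at 5.74 and 5.84 FPKM in serum and 15.1 and 15 in 2i, a log2 fold change of 1.36 (SE 0.15, limma adjusted p = 0.0001981). Its replicates were nearly equal, so this 2.58-fold difference was many times their spread.

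Ring1 was at 2.15 and 1.62 FPKM in P53-/- serum and 3.38 and 2.49 in P53-/- 2i. Its log2 fold change of 0.61 (SE 0.24, limma adjusted p = 0.05882) lay just past the fold threshold. The call was lost in 9 of 21 alternative analyses, among them those without the first P53-/- 2i library (0.40, limma adjusted p = 0.2772) or without the second P53-/- serum library (0.41, limma adjusted p = 0.2458).

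**Figure D2:**
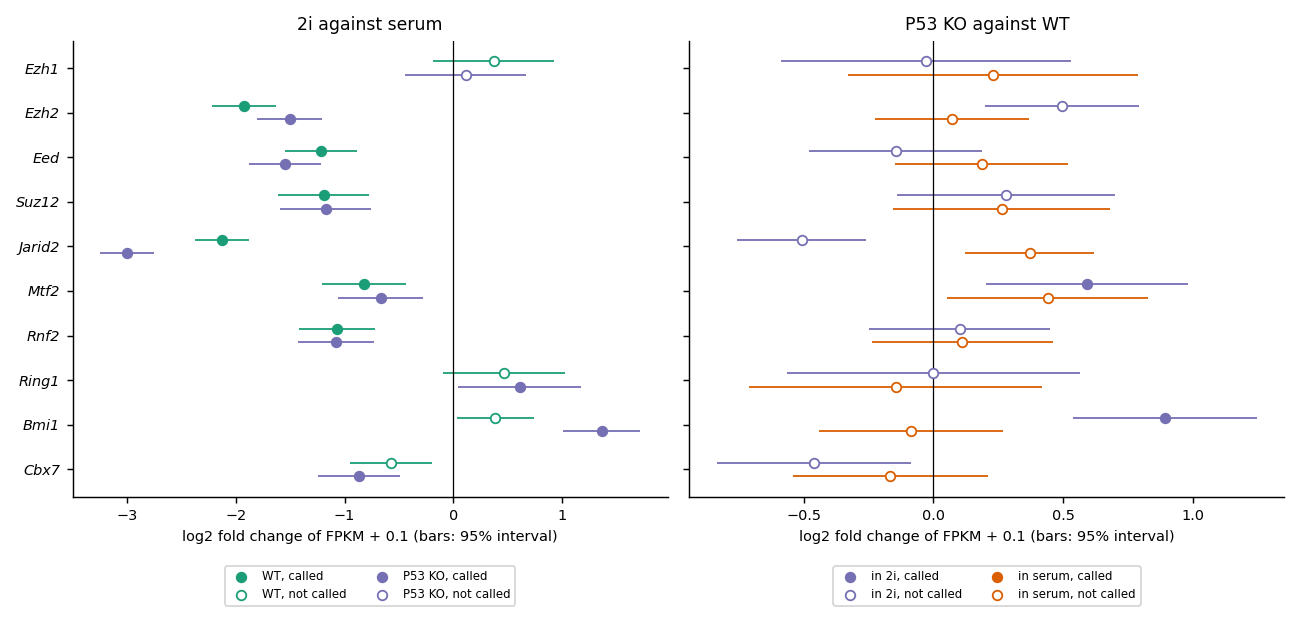
Log2 fold changes of FPKM + 0.1 with 95% intervals for the 10 subunits, for 2i against serum (left) and P53-/- against WT (right). Filled points were called and open points were not. Jarid2 in P53-/- ESCs lies farthest from 0 on the left at -3.00, and Bmi1 in 2i on the right at 0.89.

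Markers of the cell cycle moved with culture too. Within the G1 sort, 16 markers of G2 and M phase summed to 839 to 876 FPKM in the serum libraries, 352 and 399 in those of WT 2i, and 501 and 598 in those of P53-/- 2i, and none was at 0. Of the 16, 15 were called lower in WT 2i than in WT serum, 11 were called lower in P53-/- 2i than in P53-/- serum, and 7 were called higher in P53-/- 2i than in WT 2i, where 28.6%, 30.1% and 4.36% of all genes were called in these directions. The sum of 16 S-phase markers was 1870 to 2020 FPKM in serum, 1470 and 1540 in 2i for WT, and 1670 and 1760 in 2i for P53-/- ESCs. The S-phase list did not move as one. Between cultures 7 were called lower in 2i and 1 higher in WT ESCs (median log2 fold change -0.18). In P53-/- ESCs 6 were called lower and 2 higher (median 0.05). Over all genes 28.6% were lower and 27.2% higher in WT, and 30.1% and 28% in P53-/- ESCs. The part of these differences in the values of the Polycomb subunits was not tested.

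The effect of P53 loss was compared in 2i ESCs next. Bmi1 and Mtf2 were called higher in P53-/- 2i ESCs and no subunit was called lower, 2 of 10, where 4.36% of tested genes were called higher and 5.97% lower (548 and 751 genes, or 200 and 474 without small RNA genes). With Gm12238 also left out, the counts over all genes were 497 higher and 811 lower. With no fold threshold Ezh2 (higher) and Jarid2 (lower) were added, 4 of 10, against 13.7% of all genes. The WT 2i libraries serve both here and in the comparison of cultures, so the values of these comparisons are not independent of each other.

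For Bmi1 the WT 2i libraries gave 7.38 and 8.83 FPKM and the P53-/- 2i libraries 15.1 and 15, a level 1.86-fold higher. The groups were well apart, with a log2 fold change of 0.89 (SE 0.15, limma adjusted p = 0.01859). The call was lost in 2 of 21 alternatives, without small RNA genes (0.87, limma adjusted p = 0.2377) and in a fit of the 2 groups alone (0.89, limma adjusted p = 0.1242). It was kept when Gm12238 was left out together with the small RNA genes. The Bmi1 promoter window shown above has an E-box match, and, as in all 12 windows of the subunits, no P53 half-site. A link between these letters and the level of Bmi1 was not tested.

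Mtf2 was at 130 and 94.8 FPKM in WT 2i and at 158 and 177 in P53-/- 2i. The P53-/- libraries were the higher ones, and the log2 fold change of 0.59 (SE 0.17, limma adjusted p = 0.07633) was barely past the fold threshold at 1.51-fold. This call was lost in 14 of 21 alternatives. They included the analyses without the first (0.67, limma adjusted p = 0.156) or second P53-/- 2i library (0.51, limma adjusted p = 0.2835), without the second WT 2i library (0.37, limma adjusted p = 0.1968), and without any 1 of the serum libraries (0.59, limma adjusted p from 0.1032 to 0.137).

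Ezh2 was at 27.6 and 25.3 FPKM in WT 2i and at 40.2 and 34.6 in P53-/- 2i, a log2 difference of 0.49 (SE 0.13, limma adjusted p = 0.06187). Jarid2 was at 21.2 and 22.2 FPKM in WT 2i and at 14.9 and 15.5 in P53-/- 2i, a log2 difference of -0.51 (SE 0.11, limma adjusted p = 0.0355). So Ezh2 was higher and Jarid2 lower in both P53-/- libraries, each by less than 1.5-fold. Jarid2 was also called lower with quantile normalization (-0.59, limma adjusted p = 0.03) and when centred on chromosome medians (-0.74, limma adjusted p = 0.01354).

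Cbx7 was lower in both P53-/- 2i libraries (13 and 12.3 FPKM) than in WT 2i (19 and 16), but its log2 difference of -0.46 did not pass the test (limma adjusted p = 0.1278). Suz12, Eed, Rnf2, Ezh1 and Ring1 had log2 differences of 0.28, -0.15, 0.10, -0.03 and -0.00, none past the test. For Ring1 the 95% interval ran from -0.56 to 0.56, and for Ezh1 from -0.59 to 0.53, so that a difference of nearly the fold threshold lay within the interval. Suz12 was at 86.3 FPKM in 1 of the P53-/- 2i libraries, while the other, at 60, lay within the WT values of 58 and 60.6.

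In serum ESCs none of the 10 subunits was called between P53-/- and WT, where limma called 1.02% of all genes (17 higher and 111 lower, or 61 and 106 without small RNA genes). At an unadjusted p under 0.05 there were 2 of 10, Jarid2 and Mtf2, against 11.3% of all genes. Jarid2 was at 97.2 and 92.7 FPKM in WT and 118 and 127 in P53-/- libraries, a log2 difference of 0.37 (SE 0.11, limma adjusted p = 0.2581). Mtf2 was at 185 and 208 FPKM in WT and 269 and 263 in P53-/- libraries, a log2 difference of 0.44 (SE 0.17, limma adjusted p = 0.386). In both cases the P53-/- libraries lay above the WT libraries. Bmi1, the clearest difference in 2i, had a log2 difference of -0.09 in serum (95% interval -0.44 to 0.27), with 5.65 and 6.69 FPKM in WT and 5.74 and 5.84 in P53-/- libraries.

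Whether the effect of P53 loss differed between the cultures was tested as an interaction. No subunit was called by limma, and 0.207% of all genes were (13 above and 13 below 0, or 44 and 114 without small RNA genes), while 3 of 10 had an unadjusted p under 0.05 (13.1% of all genes). For Jarid2 the difference of the log2 differences was -0.88 (SE 0.15, 95% interval -1.23 to -0.53, limma adjusted p = 0.1146). Both P53-/- libraries were below WT in 2i and above WT in serum. For Bmi1 the interaction was 0.98 (SE 0.22, limma adjusted p = 0.1689), and for Ezh2 0.42 (limma adjusted p = 0.3761). Neither met the adjusted threshold, and a difference between the cultures is therefore not established for these genes.

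Several subunits have a partner that can take the same place in the complex, and the balance of such pairs was read within each library as a log2 ratio of FPKM, as a description with no test. Ezh2 exceeded Ezh1 by 13.2 and 16.9 times in WT serum libraries and by 2.99 and 3.05 times in WT 2i libraries. In P53-/- ESCs the excess was 12.3 and 14.5 times in serum and 3.58 and 5.28 times in 2i. The catalytic pair was thus less unequal in every 2i library than in any serum library.

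Rnf2 exceeded Ring1 by 35.8 and 35.5 times in WT serum and by 11.5 and 12.8 times in WT 2i libraries. In P53-/- libraries the excess was 34.1 and 53.8 times in serum and 10.3 and 16.4 times in 2i. Bmi1 relative to Pcgf2, the PCGF protein that takes its place in other canonical PRC1, turned over between cultures. The log2 ratio of Bmi1 to Pcgf2 was -0.53 and -0.31 in WT serum libraries, and in the P53-/- libraries of serum -0.65 and -0.19. It was 2.29 and 1.89 in the WT libraries of 2i, and 2.76 and 3.40 in the P53-/- libraries of 2i. Pcgf2 was the more abundant of the pair in each serum library and Bmi1 in each 2i library, with Pcgf2 itself at 8.17 and 8.26 FPKM in WT serum and 1.51 and 2.39 in WT 2i.

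The accessory subunits Jarid2 and Mtf2 mark alternative forms of PRC2. The log2 ratio of Jarid2 to Mtf2 was -0.93 and -1.17 in WT serum libraries, and in the P53-/- libraries of serum -1.19 and -1.04. In 2i it was -2.61 and -2.10 for WT libraries and -3.41 and -3.51 for P53-/- libraries. Jarid2 was the lower of the pair in every library, and lowest relative to Mtf2 in P53-/- 2i ESCs.

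**Figure D3:**
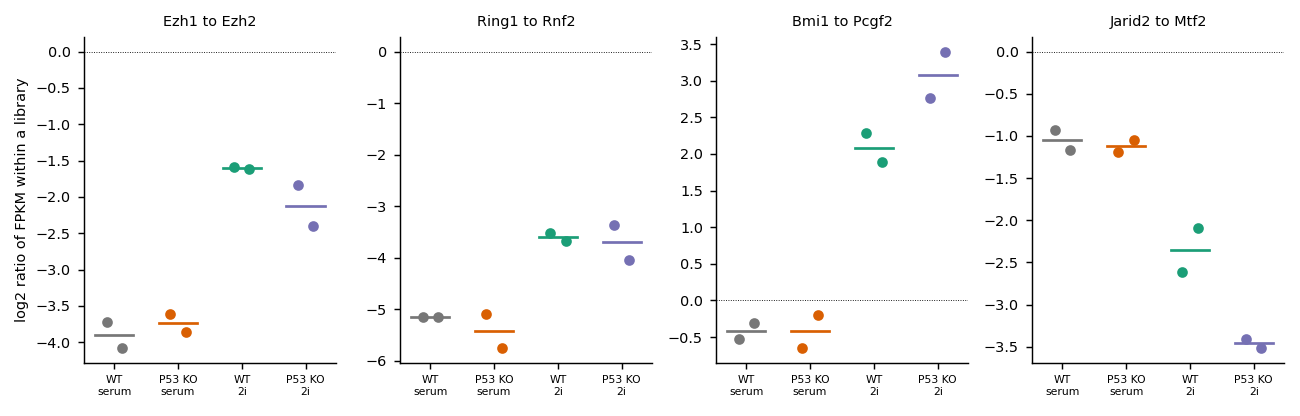
Log2 ratio of FPKM within each library for 4 pairs of alternative subunits, with a point for each library and a line at the mean of a group. The dotted line at 0 marks equal FPKM. The ratio of Bmi1 to Pcgf2 lies below 0 in the serum libraries and between 1.89 and 3.40 in the 2i libraries.

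Other genes of the Polycomb system were counted from lists. Of 8 other PRC2 genes, 2 were called higher and 3 lower in WT 2i than in WT serum, with a median log2 fold change of -0.44. Of 10 other canonical PRC1 genes, 3 were higher and 4 lower (median -0.05), and of 15 variant PRC1 genes 1 was higher and 7 lower (median -0.47). Of the 7 tested genes of the PR-DUB complex and the H3K27 demethylases, which remove the marks of PRC1 and PRC2, 6 were lower and 0 higher (median -0.92). Shares called over all genes were 28.6% lower and 27.2% higher, as above.

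Cbx8, a chromobox protein, was at 0.873 and 1.88 FPKM in WT serum and rose to 9.07 and 8.89 in WT 2i, with a log2 fold change of 2.71 (limma adjusted p = 0.0002867), whereas Cbx7 was lower in 2i. Scml2, a PRC1 subunit of the germ line, was at 0.607 and 0.524 FPKM in serum and 5.09 and 4.53 in 2i (a difference of 2.88 in log2, limma adjusted p = 0.003162). AU022751, the symbol of the table for Ezhip, an inhibitor of PRC2, was at 0.213 and 0.328 FPKM in serum and 2.48 and 2.82 in 2i (a difference of 2.91 in log2, limma adjusted p = 0.003685). In P53-/- ESCs neither Scml2 (log2 difference -0.65, limma adjusted p = 0.3471) nor AU022751 (0.71, limma adjusted p = 0.3201) passed the test between cultures, and 1 P53-/- serum library held 2.7 FPKM of Scml2 where the other held 0.698.

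Rybp, a subunit of variant PRC1, was at 27.6 and 31.5 FPKM in WT serum and 7.61 and 6.21 in WT 2i, which is a log2 fold change of -2.08. Pcgf2, Pcgf5 of variant PRC1, Phf19 (a Polycomb-like relative of Mtf2) and Asxl2 of PR-DUB had log2 fold changes of -2.05, -1.60, -1.57 and -2.17. All 5 were called lower (largest limma adjusted p = 0.01032, for Phf19). In P53-/- ESCs the differences between cultures included Cbx8 at 2.68, Epop, a PRC2 accessory protein, at -2.31, Asxl2 at -2.09, Pcgf2 at -2.06, Rybp at -1.88, Bcorl1 of variant PRC1 at -1.67 and Lcor at -1.59. The opposite signs of Cbx8 and Cbx7 held in both genotypes.

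Trithorax and MLL genes oppose Polycomb as a group, largely through methylation of lysine 4 of histone H3. Of the 12 listed, 8 were called lower in 2i and 1 higher in WT ESCs (median log2 fold change -0.98). Over all genes 28.6% were called lower and 27.2% higher. Setd1b, Kmt2a, Setd1a and Kmt2c had the largest differences, at -2.70, -2.04, -1.79 and -1.64 in WT ESCs and -2.67, -2.52, -2.18 and -2.09 in P53-/- ESCs. Setd1b was low throughout, at 2.35 and 2.09 FPKM in WT serum and 0.285 and 0.229 in WT 2i, and passed the filter through its serum values.

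Of 36 developmental genes known as Polycomb targets, 16 passed the filter. In WT 2i ESCs 6 of these were called higher and 4 lower than in WT serum, where 27.2% of all genes were called higher and 28.6% lower. Gsc, Lhx2, T and Msx1, 4 of the 6 called higher, were under 0.5 FPKM in every serum library and passed the filter through their 2i values. Msx2, 1 of the 4 called lower, was under 0.5 FPKM in every 2i library and passed through its serum values. The counts over these 16 describe the targets that passed and not the list. Gsc, a homeobox gene of the organizer, was listed at 0 in both WT serum libraries, while WT 2i libraries gave 6.85 and 8.14 FPKM. Bmp4, a signalling ligand, was at 59 and 58.1 FPKM in WT serum but 3.72 and 4.36 in WT 2i, which is a log2 fold change of -3.83 (limma adjusted p = 3.355e-05). The mesoderm factor T and the homeobox gene Msx1 were higher in 2i, with log2 fold changes of 3.02 and 2.55.

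For P53 loss in 2i, 1 of 8 other PRC2 genes was called higher and 0 lower, 0 of 10 other canonical PRC1 genes higher and 2 lower, and 1 of 15 variant PRC1 genes higher and 0 lower, against 4.36% higher and 5.97% lower over all genes. Scml2 was lower in P53-/- 2i ESCs (1.18 and 0.612 FPKM) than in WT 2i (5.09 and 4.53), a log2 fold change of -2.36 (limma adjusted p = 0.04925). Pcgf5 was higher, at 5.77 and 4.73 FPKM against 2.71 and 2.67 (0.93, limma adjusted p = 0.02153). Rbbp7, a histone chaperone subunit of PRC2 and of other complexes, was higher at 211 and 214 FPKM against 121 and 151 (0.65, limma adjusted p = 0.03486). Scmh1 was lower with a log2 fold change of -0.97 (limma adjusted p = 0.09804).

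For P53 loss in 2i, 0 of 7 tested genes of the PR-DUB and demethylase list and 0 of 12 trithorax genes were called, where 4.36% of all genes were called higher and 5.97% lower. Of the 16 Polycomb targets tested, Cdkn2b (-1.32) and Tbx3 (-0.66) were called lower and Id2 (2.01-fold) higher. In serum no gene of any of these lists was called between P53-/- and WT ESCs by limma, where 1.02% of all genes were.

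**Figure D4:**
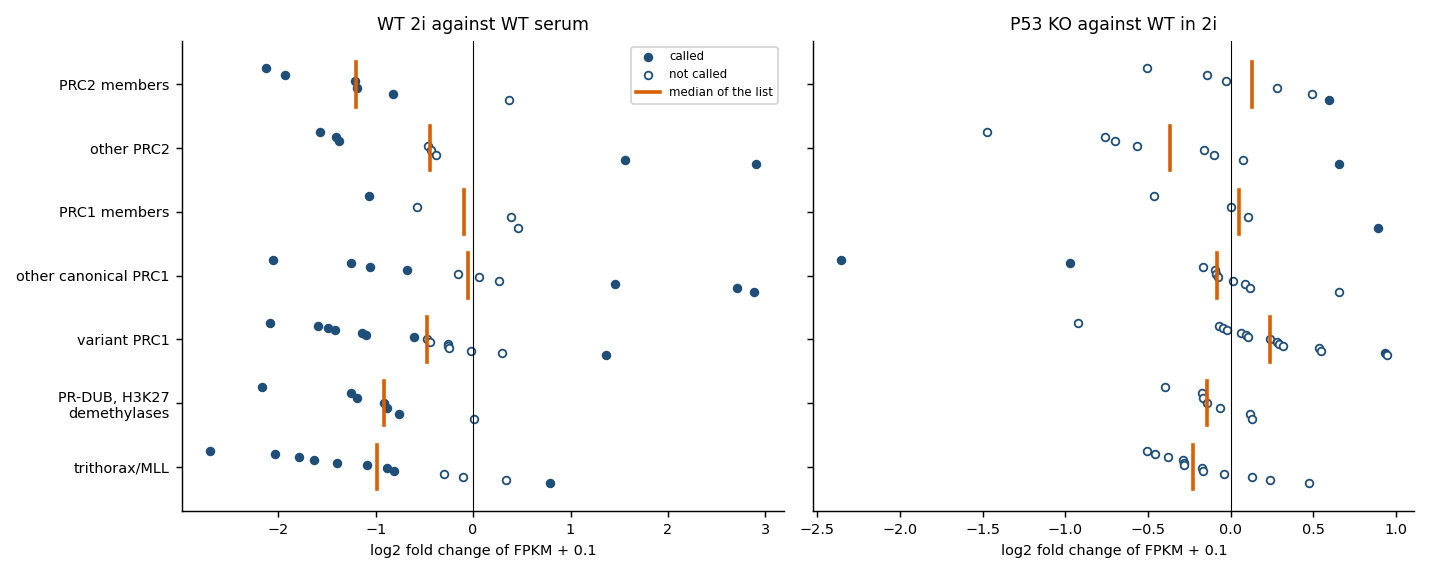
Log2 fold changes of FPKM + 0.1 of the 10 subunits and 5 further lists for WT 2i against WT serum (left) and for P53-/- against WT in 2i (right). Each point is a gene (filled where called) and orange lines are medians. The median of the PRC2 members is -1.20 on the left and 0.13 on the right.

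Reads from neighbouring genes can enter the values of some subunits. In GENCODE M21, exons of Mtf2, Rnf2 and Cbx7 share 395, 158 and 100 bases with exons of Tmed5, Trmt1l and Apobec3 on the opposite strand, and exons of Ezh2, Eed and Suz12 share 174, 261 and 178 bases with noncoding genes on the opposite strand. The library kit keeps strand, but whether the FPKM were computed by strand is not given in the sources used here. Ezh1, Jarid2, Ring1 and Bmi1 share no exon bases with another gene.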

How the data were processed

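Total RNA of G1-sorted R1 FUCCI ESCs was depleted of rRNA, copied with random primers and sequenced from a stranded kit. The authors deposited 1 table of FPKM for 24881 symbols in 8 libraries. The submitters' processing notes name STAR, Cufflinks, DESeq2 and build mm9, without roles, and the annotation is not given in the sources used here. No further scaling was applied. Columns show the group but not the replicate, and libraries were numbered in column order. Counts are not in the table, so depth was only approximated and no count test was run.

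The values were tested on log2(FPKM + 0.1) by limma (version 3.58.1, R version 4.3.3), with an intensity trend, for the 12572 genes with a mean of at least 0.5 FPKM, in 1 fit of 4 groups of 2 libraries. The P53 effect in each culture, the culture effect in each genotype and their interaction were taken from this fit, and genes with a Benjamini-Hochberg adjusted p below 0.1 that also differed by more than 1.5-fold were called. The 10 subunits and the gene lists were chosen with earlier results of these data known. Named genes were the 10 subunits, Trp53 and Cdkn1a, up to 8 called genes per comparison with the largest difference over the other Polycomb lists, and up to 4 from the trithorax and from the target list. Pcgf2 also served in a ratio. A gene that the rule names, and a ratio that needs it, are not reported here. Alternatives changed the pseudocount, filter, scaling, thresholds, fit and libraries. Gene types and exons came from GENCODE M21 (98.2% of symbols matched) and promoters from RefSeq on GRCm38.p6. No coordinates were converted from mm9.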

Additional observations from a re-analysis of the deposited data

Results flagged for a closer look

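For Jarid2, both P53-/- libraries lay below both WT libraries in 2i and above both WT libraries in serum. The interaction did not pass the test, at -0.88 on the log2 scale (SE 0.15, limma adjusted p = 0.1146, range of the adjusted p over the alternatives 0.09731 to 0.85).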

How the results depend on the processing

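No paired analysis was possible because the columns of the table carry no replicate numbers. With 2 libraries a group, the spread rests on few values, and depth is known only roughly.

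Culture effects kept the sign of every subunit in every alternative with the exception of Ezh1 in P53-/- ESCs, which ranged from -0.27 to 0.49 when 1 library was left out. The number of subunits called for P53 loss in 2i, 2 as reported, was 0 without small RNA genes or in a fit of only the groups compared, 1 without trend or at an adjusted p under 0.05, and 4 with no fold threshold. With quantile normalization or centring on chromosome medians it stayed at 2, but Jarid2 was called lower in place of Mtf2. It was 1 without small RNA genes and Gm12238, an alternative chosen after seeing the data, and 1 to 2 with 1 library left out. Leaving out small RNA genes moved the median of all genes to 0.30 for WT 2i against WT serum and to 0.20 in P53-/- ESCs. With Gm12238 also left out these medians were -0.049 and -0.1. The interaction, 0 as reported, gave 1 subunit (Jarid2) with a pseudocount of 1, and could not be fitted with only the groups compared. In serum P53 loss gave 0 in every alternative. Without small RNA genes and Gm12238 all-gene calls were 54 higher and 136 lower for P53 loss in serum and 17 and 52 for the interaction.

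Signs changed only among differences that were not called. For P53 loss in 2i, Ring1 was 0.0026 with a pseudocount of 1, 0.0117 with median-ratio scaling, 0.0855 with quantile normalization and 0.0133 when centred on chromosome medians. Rnf2 was -0.005 with quantile normalization and Ezh1 0.095 centred on chromosome medians. In serum Ezh2 was -0.0277 centred on chromosome medians. For the interaction, Rnf2 was 0.018 with median-ratio scaling and 0.1617 centred on chromosome medians, Suz12 -0.1162 with quantile normalization, -0.0656 without small RNA genes and -0.014 without small RNA genes and Gm12238, and Mtf2 -0.0515 centred on chromosome medians.

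With 1 library left out, P53 loss in 2i ranged from -0.41 to 0.35 for Ezh1, -0.013 to 0.22 for Rnf2 and -0.21 to 0.21 for Ring1. In serum it ranged from -0.011 to 0.23 for Rnf2, -0.34 to 0.050 for Ring1, -0.33 to 0.0014 for Cbx7, -0.0071 to 0.15 for Ezh2 and -0.21 to 0.033 for Bmi1. The interaction ranged from -0.24 to 0.28 for Suz12, -0.13 to 0.11 for Rnf2, -0.067 to 0.36 for Ring1, -0.64 to 0.12 for Ezh1 and -0.073 to 0.38 for Mtf2. The cause of these changes was not tested.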
